A study of Mus musculus with 18 samples.

Results

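Spp1, the mouse gene for osteopontin (ENSMUSG00000029304.14, plus strand of chromosome 5), was 1 of the 19749 pairs of gene and chromosome in the table of RibOxi-seq counts. All of its positions were taken, 1282 of 1825851. Of these, 1233 held at least 1 count, and together they held 5943 counts. RibOxi-seq reads the 3′ ends of RNA fragments after rounds of oxidation and elimination that remove nucleotides lacking a 2′-O-methyl group, so a 3′ end that stays in place is a candidate methylated nucleotide. The 9 libraries were made from oxidized poly(A) RNA of 4T1 cells, a mouse mammary carcinoma line, and came from the parental cells (4T1 WT) and from a pair of knockout lines, Snord67KO-1 and Snord67KO-2, as 3 biologic replicates of each. Snord67 is a box C/D small nucleolar RNA that guides 2′-O-methylation, and each knockout line was 1 single-cell clone made with CRISPR/Cas9 and paired guide constructs, while all 3 lines carried the mCherry and Renilla luciferase reporters. With 1 clone for each line, an effect of the deletion and a difference between clones cannot be told apart. Control libraries without oxidation were not analysed here, so methylated ends and ends left by incomplete elimination cannot be told apart, nor can more RNA per cell and more cells with the RNA.

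Osteopontin is a secreted, acidic phosphoprotein that binds integrins through an arginine-glycine-aspartate motif and binds CD44 on many cells. It belongs to the small integrin-binding ligand glycoproteins, whose genes lie close together and were first described in bone and tooth, and it is also made by macrophages, by epithelia and by many carcinomas, mammary carcinoma among them. Thrombin and matrix metalloproteinases cut the protein, transglutaminase crosslinks it, and FAM20C phosphorylates it.

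The libraries held 212463 to 737219 counts, and the Snord67KO-2 libraries were the smallest, at 212463, 368693 and 423278 counts. Rn45s, the precursor of ribosomal RNA, took 19.3% to 32.4% of the counts, with its highest shares in Snord67KO-2 replicates 1 and 2 (32.4% and 29.4%). Snord67KO-2 replicate 3, at 26.4%, lay below 4T1 WT replicate 3, at 26.8%. The table marks some positions as mispriming, and these held 17.8% of the counts of 4T1 WT replicate 2, the highest share of any library, and as little as 1.38% in the others. That library also stood apart from its replicates over all genes (chi-square per degree of freedom 11.2 and 17.0, against at most 3.64 for every other pair). Counts in protein-coding genes fell outside annotated exons in 45.2% to 63.2% of cases. Snord67 itself was not analysed here, so the deletion was not checked from these counts.

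Few Spp1 counts were found in the parental cells and many in both clones. The 4T1 WT libraries held 72, 78 and 63 Spp1 counts, or 97.7, 122 and 101 CPM (counts scaled to the library total). The Snord67KO-1 libraries held 1195, 843 and 1395 counts, or 1774, 1714 and 2031 CPM. The Snord67KO-2 libraries held 452, 828 and 1017 counts, or 2127, 2246 and 2403 CPM. The 3 genotypes did not overlap in CPM, and the lowest clone library lay far above the highest parental library. The means were 107 ± 13.3 CPM in 4T1 WT, 1840 ± 169 CPM in Snord67KO-1 and 2259 ± 138 CPM in Snord67KO-2 (SD, n = 3). These means stood 17.2-fold above 4T1 WT in Snord67KO-1 and 21.1-fold above it in Snord67KO-2. Spp1 was chosen by its counts, which had differed between the clones and the parental cells, so these folds describe the data and were not tested.

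**Figure D1:**
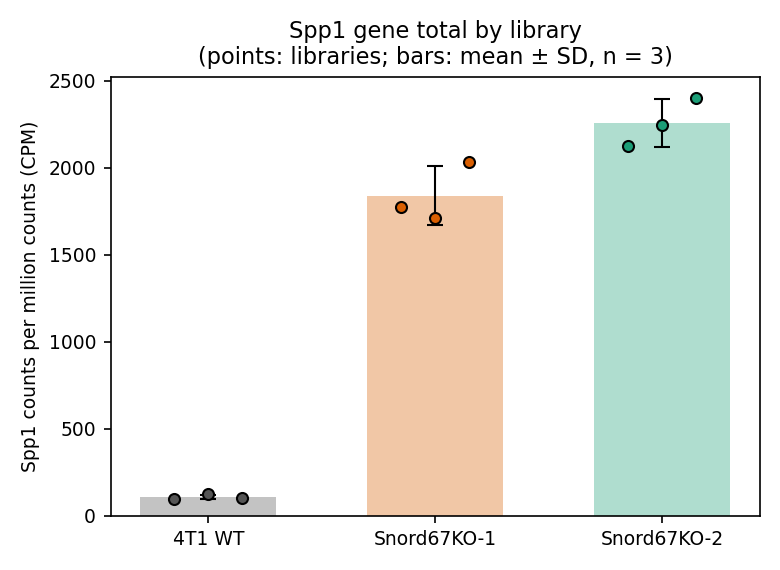
Spp1 level in CPM in each of the 9 oxidized libraries, with points for libraries, bars for the mean of each genotype and error bars for the SD (n = 3). The 4T1 WT libraries sit between 97.7 and 122 CPM, Snord67KO-1 between 1714 and 2031 CPM and Snord67KO-2 between 2127 and 2403 CPM.

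The parental level was not low for this table. Per kilobase of exon, Spp1 stood at 64.8 CPM in 4T1 WT, rank 216 of 17089 protein-coding genes, where the median gene stood at 1.22. The CPM here came from all positions of each gene, so genes with many counts outside exons rank higher than by exon counts. The level took rank 21 in Snord67KO-1, at 1116 CPM per kilobase, and rank 20 in Snord67KO-2, at 1371 CPM per kilobase. In the fit across all genes, the log2 change of Spp1 against 4T1 WT was 3.97 in Snord67KO-1 and 4.65 in Snord67KO-2, the 20th and the 2nd highest of 6295 genes. Spp1 was chosen by its difference in this same comparison, so a high rank was built in and is a description only.

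The clones themselves were compared by a test, since that difference did not choose the gene. In edgeR's quasi-likelihood test over 6295 genes, with Benjamini-Hochberg adjustment, Spp1 was higher in Snord67KO-2 than in Snord67KO-1 by 0.68 on the log2 scale, with an SE of 0.21 and a 95% interval of 0.24 to 1.12. This is 1.60-fold, with an interval of 1.18 to 2.17. The adjusted p was 0.0761, so the difference did not pass the threshold, although every Snord67KO-2 library lay above every Snord67KO-1 library. The size of this difference rested on scaling: the log2 value was 0.30 with an adjusted p of 0.372 when libraries were scaled by their totals only, a setting in which the median of all genes moved to −0.36. It passed the threshold in 2 of 17 alternatives, with adjusted p of 0.0238 when marked positions were left out and 0.0167 without 4T1 WT replicate 2.

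The counts lay almost wholly on the spliced mRNA. In the transcript Spp1-201 (chromosome 5, 104435118 to 104441050, GRCm38, GENCODE M21), 7 exons make an mRNA of 1410 nt with a coding sequence of 885 nt and a 3′ UTR of 432 nt, and the introns between them span 4523 nt. Exons held 5866 of the 5943 counts, or 98.7%, introns held 69, and 8 lay outside. A transcript model named Gm42793 overlaps the start of the gene on the same strand, and counts there cannot be told apart between them. Intron counts were 1 in the parental cells, 36 in Snord67KO-1 and 32 in Snord67KO-2, pooled over 3 libraries. The pooled intron share was 0.469% in 4T1 WT, with an exact 95% interval of 0.0119% to 2.59%, 1.05% in Snord67KO-1 and 1.39% in Snord67KO-2. Of the 69 intron counts, 25 fell in intron 5, and the parental count fell in intron 6. Such intervals cover counting error only.

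Every exon held counts in every genotype. Exon 7, the last exon (104440229 to 104441050, 822 nt), held 142 parental counts, 2244 in Snord67KO-1 and 1455 in Snord67KO-2. Exon 6, a coding exon of 282 nt (104439265 to 104439546), held 45, 782 and 524 counts in the same order. Exons 1 to 5, which are short, together held fewer counts for their length: 7.52, 121 and 92.2 counts per 100 nt, against 16.0, 277 and 186 in exon 6. Exon 5 alone, of 42 nt, came near exon 6, at 14.3, 217 and 193 counts per 100 nt. In the last exon, the coding portion held 16.9, 223 and 150 counts per 100 nt and the 3′ UTR held 17.6, 318 and 201. Exons 6 and 7 were thus denser than exons 1 to 5 combined in all 3 genotypes. Density was higher in the 3′ UTR than in the coding sequence, with a ratio of 1.43 over all libraries, while the median of 2014 protein-coding genes was 0.761.

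The split of counts between coding sequence and 3′ UTR overlapped between the 3 genotypes. The 3′ UTR held 26.4%, 44.9% and 34.9% of Spp1 counts in the 4T1 WT libraries, 38.2%, 39.7% and 41.6% in Snord67KO-1, and 37.6%, 39.4% and 36.8% in Snord67KO-2. The parental shares, from fewer than 80 counts each, spread widely and enclosed those of both clones. The coding sequence held 58.8 ± 7.19% in the parental cells, 55.7 ± 1.36% in Snord67KO-1 and 57.1 ± 2.13% in Snord67KO-2 (SD, n = 3). Between the clones, the 3′ UTR share differed by −1.96 percentage points, Snord67KO-2 minus Snord67KO-1 (two-sided exact permutation test, p = 0.2, adjusted 0.533 over 4 shares). The coding share differed by 1.34 points (exact permutation p = 0.4, adjusted 0.533) and the intron share by 0.104 points (exact permutation p = 0.8, adjusted 0.8). With 3 libraries against 3, the smallest exact permutation p is 0.1.

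**Figure D2:**
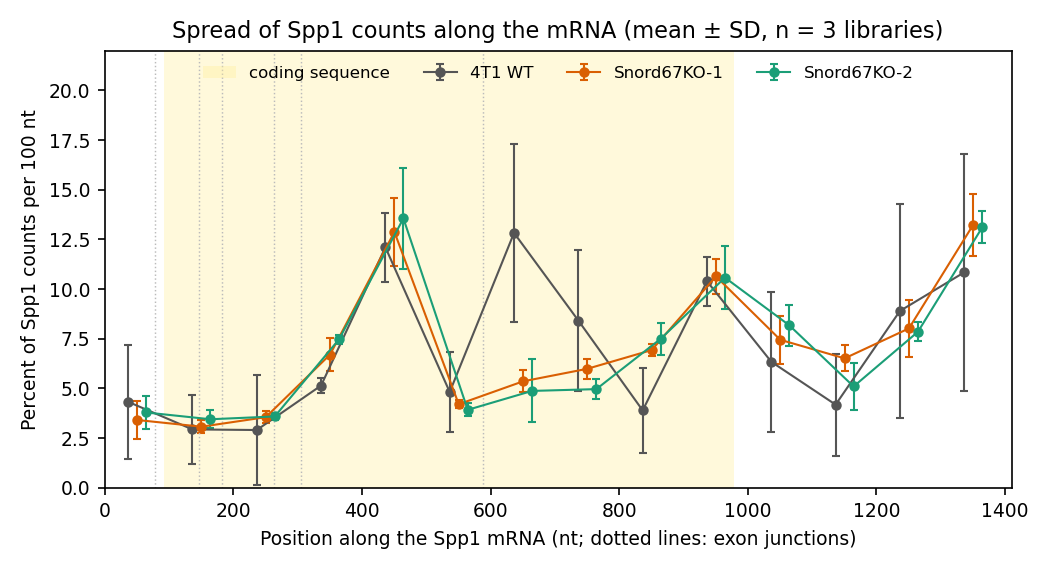
Share of each library's Spp1 counts in bins of 100 nt along the spliced mRNA, as the mean of 3 libraries per genotype with SD bars. Both clones are highest at 401 to 500 nt and 1301 to 1400 nt, while 4T1 WT is highest at 601 to 700 nt, with 12.8% against 5.36% and 4.88%.

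Along the mRNA the clones had their highest bins at the same places, and the parental cells had 1 more. The bin from 401 to 500 nt held 12.1 ± 1.73% of Spp1 counts in the parental cells, 12.9 ± 1.69% in Snord67KO-1 and 13.6 ± 2.52% in Snord67KO-2. The bin from 1301 to 1400 nt, in the 3′ UTR, held 10.8 ± 5.96%, 13.2 ± 1.55% and 13.1 ± 0.800%. The clones and the parental cells differed at 601 to 700 nt, where the share was 12.8 ± 4.46% in the parental cells, 5.36 ± 0.554% in Snord67KO-1 and 4.88 ± 1.58% in Snord67KO-2. That bin holds a position the table marks as mispriming, 104440304. Among unmarked Spp1 counts alone the shares of the bin were 4.22 ± 3.86%, 3.78 ± 1.16% and 4.34 ± 1.16%.

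Spp1 counts were spread over many positions rather than gathered at a few. Across all libraries 1181 of 1410 mRNA positions, or 83.8%, held a count: 11.4% in the parental cells, 71.6% in Snord67KO-1 and 62.2% in Snord67KO-2, an order that follows the counts at hand. The 10 highest positions held 20.7% of the parental counts, 8.56% in Snord67KO-1 and 6.49% in Snord67KO-2. Of the 164 parental positions with a count, 139 held 1 count, so this share depends on depth and does not compare evenness between genotypes. Over all libraries the highest position held 1.46% of the gene's counts, where the median of 2085 protein-coding genes with at least 200 counts was 6.76%. The genes were not matched for depth, and Spp1 held 5943 counts, so its low share may reflect its depth. With the exons of any annotated transcript, 1.19% of Spp1 counts lay outside exons, against a median of 8.72%.

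The densest stretch of 30 nt lay in the 3′ UTR at chr5:104440939-104440968 and ended 82 nt before the end of the gene. Its sequence is shown because it holds several of the highest positions of the gene, and the capitals mark the bases at 104440944, 104440946, 104440951 and 104440956 (plus strand, GRCm38).
Spp1 densest window: aagagAaActgtAacagTctatatcactat
The window makes up 2.13% of the mRNA and held 21 parental counts, 353 in Snord67KO-1 and 239 in Snord67KO-2, together 613 of 5943 counts or 10.3%. Its share of each library's Spp1 counts was 9.53 ± 4.67% in the parental cells, 10.6 ± 1.76% in Snord67KO-1 and 10.4 ± 0.230% in Snord67KO-2, so the genotypes overlapped. In the pooled counts the share was 9.86% in 4T1 WT (exact interval 6.21% to 14.7%), 10.3% in Snord67KO-1 (9.29% to 11.3%) and 10.4% in Snord67KO-2 (9.19% to 11.7%). The window was thus higher in both clones along with the gene as a whole. Leaving out the marked positions and 104440951, it still held 8.15 ± 4.40%, 7.12 ± 0.511% and 8.49 ± 0.490%.

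**Figure D3:**
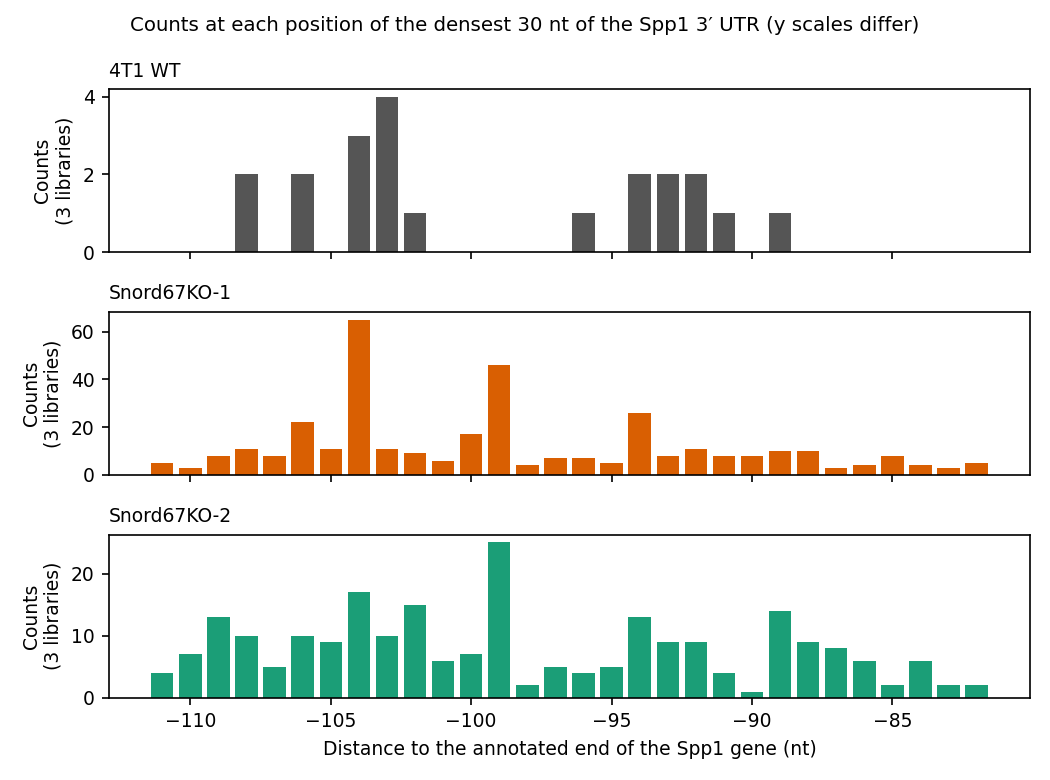
Spp1 counts at each position of the densest 30-nt window of the 3′ UTR, by distance in nt to the end of the gene, summed over the 3 libraries of each genotype, with a count axis of its own for each. Local peaks of at least 25 counts over all libraries lie 106, 104, 99, 94 and 89 nt before the gene end, with lower ones between them, and the parental counts are too few to show them one by one.

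Within the window the local peaks of at least 25 counts lay at 104440944, 104440946, 104440951, 104440956 and 104440961, with 34, 85, 71, 41 and 25 counts over all libraries. Lower local peaks lay at 104440942, with 23 counts, and 104440958, with 22. The hexamer AATAAA, the commonest polyadenylation signal, stands in the 3′ UTR on the plus strand at 104440889 to 104440894 and at 104441028 to 104441033, that is 45 nt before the window and 17 nt before the gene end. Of 28462 principal transcripts, 64.4% held this hexamer at least once on their own strand in their last 432 bases and 16.1% at least 2 times, so its presence is common.

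The highest positions are shown with 10 bases on each side, the position in a capital (plus strand, GRCm38).
104440304, coding, exon 7: cgatgtcatcCctgttgccca
104440946, 3′ UTR: taaaagagaaActgtaacagt
104440951, 3′ UTR: gagaaactgtAacagtctata
104440676, 3′ UTR: gaaaaagtgtTagtgagggtt
104439431, coding, exon 6: gctagtacacAagcagacact
The highest of all, 104440304, held 5, 13 and 2 counts in 4T1 WT, 21, 28 and 2 in Snord67KO-1, and 2, 2 and 12 in Snord67KO-2. It was the highest position of 4T1 WT, with 20 counts or 9.39% of that genotype's Spp1 counts, and its replicates disagreed widely. The next, 104440946, held 0, 2 and 1 counts in 4T1 WT, 27, 28 and 10 in Snord67KO-1, and 2, 5 and 10 in Snord67KO-2. Both are marked as mispriming, and the 6 bases that follow each of them matched the commonest bases after marked positions in 5 letters, as did those after 10 of 1404 Spp1 mRNA positions in at least 5 letters. After 104440951 the match was 0 of 6 letters and after 104440956 it was 4 of 6. Over the gene the table marked 13 positions, 12 of them with a count, and these held 218 counts, 172 of them at 104440304 and 104440946. Their share of Spp1 counts was 8.33%, 19.2% and 6.35% in 4T1 WT, 4.94%, 8.19% and 1.36% in Snord67KO-1, and 0.885%, 1.45% and 2.95% in Snord67KO-2. The share differed by −3.07 points between Snord67KO-2 and Snord67KO-1 (two-sided exact permutation test, p = 0.3, adjusted 0.533). With marked positions left out the gene stood 18.6-fold above 4T1 WT in Snord67KO-1 and 23.6-fold above it in Snord67KO-2.

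The unmarked position 104440951 was compared with the gene around it. It held 1.34% of Spp1 counts in Snord67KO-1 (46 of 3433, exact interval 0.983% to 1.78%) and 1.09% in Snord67KO-2 (25 of 2297, 0.706% to 1.60%). In 4T1 WT it held 0 of 213 counts, which allows a share of up to 1.41%. That limit lies above both clone shares, so a difference in the share was not detectable at the depth of the parental libraries.

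Other unmarked positions had few counts. Position 104440956 held 1, 1 and 0 counts in 4T1 WT, 10, 8 and 8 in Snord67KO-1, and 4, 4 and 5 in Snord67KO-2. Position 104440676, near the start of the 3′ UTR, held 1, 0 and 0, then 12, 4 and 7, then 3, 4 and 2. Position 104439431 was at 0 in all 4T1 WT libraries and held 7, 0 and 8 counts in Snord67KO-1 and 5, 4 and 2 in Snord67KO-2. Only 104440304, 104440946 and 104440951 reached 10 counts in 3 libraries and were tested between the clones relative to the rest of the gene. Position 104440951 reached 10 counts in Snord67KO-1 libraries only, and 104440946 in these and in Snord67KO-2 replicate 3. The entry of both into the test thus depended on Snord67KO-1, where their counts were highest. None of these 3, and 0 of 2051 positions in the table (0.0%), passed edgeR's quasi-likelihood test after Benjamini-Hochberg adjustment, while 43 had an unadjusted p under 0.05. The log2 difference between Snord67KO-2 and Snord67KO-1 was −1.38 at 104440304 (adjusted p = 0.945), −1.56 at 104440946 (SE 0.69, adjusted p = 0.945) and −0.20 at 104440951 (95% interval −1.28 to 0.88, adjusted p = 0.953).

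The base at the 3′ end was not an even draw from the mRNA. Guanine makes up 22.7% of the Spp1 mRNA and stood at 13.5 ± 0.937% of exon counts in Snord67KO-1 and 14.8 ± 1.23% in Snord67KO-2, below that share in all 6 clone libraries. The parental share of guanine was 14.6 ± 9.97%, from 3.90% to 23.6%, and enclosed it. Adenine makes up 29.9% of the mRNA and stood at 30.9 ± 9.23% in the parental cells, 35.1 ± 0.356% in Snord67KO-1 and 33.9 ± 0.709% in Snord67KO-2. Cytosine, 21.5% of the mRNA, took 32.6 ± 5.74% of the parental counts, 20.6 ± 1.81% in Snord67KO-1 and 21.4 ± 1.57% in Snord67KO-2. Thymine took 21.8 ± 5.55% of the parental counts, 30.8 ± 1.07% in Snord67KO-1 and 29.8 ± 1.95% in Snord67KO-2. The parental libraries thus stood above both clones in cytosine and below them in thymine, without overlap, in 63 to 78 counts a library. Of the 213 parental counts, 20 lay at 104440304, a cytosine marked as mispriming, and its part in the difference was not tested.

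Dmp1, dentin matrix protein 1, belongs to the osteopontin family and lies upstream of Spp1 on chromosome 5 (104202613 to 104214102). It held 0, 0 and 2 counts in 4T1 WT, 51, 33 and 87 in Snord67KO-1, and 2, 7 and 11 in Snord67KO-2. Dmp1 was thus near 0 in the parental cells, highest in Snord67KO-1 and low in Snord67KO-2, an order unlike that of Spp1. Dmp1 reached the filter of 10 counts in 3 libraries only with its Snord67KO-1 libraries, the group where it was highest, so its entry into the test depended on that difference. Dmp1 passed edgeR's quasi-likelihood test (Benjamini-Hochberg adjustment) in Snord67KO-1, where it was higher by 6.09 on the log2 scale (SE 0.60, adjusted p = 7.42e-06). Of all genes tested, 18.3% were called there, 10.1% higher and 8.2% lower. It also passed in Snord67KO-2, where it was higher by 4.22 (SE 0.82, adjusted p = 0.00906) and 3.18% of genes were called, 2.43% higher and 0.747% lower. For the average of both clones Dmp1 was higher by 5.15, where 12.1% of genes were called, 6.2% higher and 5.86% lower. Both parental counts were in 4T1 WT replicate 3, and without that library the log2 changes were 8.53 in Snord67KO-1 and 6.67 in Snord67KO-2, while without 4T1 WT replicate 2 they were 5.47 and 3.59. The pooled ratio to 4T1 WT rests on these 2 counts and was 92.4 in Snord67KO-1 (counting interval 25.2 to 769) and 19.9 in Snord67KO-2 (4.84 to 176). Between the clones Dmp1 was lower in Snord67KO-2, with a log2 difference of −1.87 (SE 0.42, adjusted p = 0.0215), in a comparison that called 3.99% of genes, 1.8% higher and 2.19% lower. The Snord67KO-2 call was lost without Snord67KO-2 replicate 2 (adjusted p = 0.0515) or replicate 3 (adjusted p = 0.0802). Of the other family genes, Dspp lay below the filter on low counts, and Ibsp and Mepe were not analysed here.

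Of the listed neighbours of Spp1, 1 of 4 was tested. Pkd2, which codes for the polycystin-2 channel, had log2 changes of 0.58 in Snord67KO-1 (adjusted p = 0.158) and 0.36 in Snord67KO-2 (adjusted p = 0.571), and the former passed without 4T1 WT replicate 2, at 0.84 (adjusted p = 0.0383). With counts in annotated exons only, a setting chosen after seeing the data, Pkd2 was higher in Snord67KO-1 by 1.20 (adjusted p = 0.0121) and had a value of 0.94 in Snord67KO-2 (adjusted p = 0.117).

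Among the enzymes that cut or modify osteopontin, 3 of 6 passed the filter, 1 was higher in Snord67KO-1, where 10.1% of all genes were, and 2 were higher in Snord67KO-2, where 2.43% of all genes were. Mmp3, stromelysin-1, held 9, 7 and 8 counts in 4T1 WT, 87, 60 and 119 in Snord67KO-1, and 27, 54 and 51 in Snord67KO-2. Its mean rose from 12.0 ± 0.941 CPM in 4T1 WT to 141 ± 27.8 CPM in Snord67KO-1 and 131 ± 13.5 CPM in Snord67KO-2 (SD, n = 3). Both clones lay far above the parental cells without overlap, by 3.41 on the log2 scale (SE 0.30, adjusted p = 2.04e-06) and 3.67 (SE 0.31, adjusted p = 2.01e-06), and the clones did not differ past the threshold (0.26, adjusted p = 0.638). Mmp3 stayed below 10 counts in every 4T1 WT library, so it entered the test through the clone libraries, where it was high. Mmp9, gelatinase B, held 7, 3 and 3 counts in 4T1 WT, 4, 4 and 5 in Snord67KO-1, and 14, 25 and 21 in Snord67KO-2. Mmp9 was higher in Snord67KO-2 by 3.42 (SE 0.41, adjusted p = 0.000119) and stood at −0.01 in Snord67KO-1 (adjusted p = 0.996). The difference of Mmp9 between the clones was itself past the threshold, at 3.43 (SE 0.41, adjusted p = 0.000128). Mmp9 reached 10 counts in Snord67KO-2 libraries only, so it entered the test through the group where it was high. Tgm2, the tissue transglutaminase, passed in no comparison, and Mmp7, Fam20c and F2, the gene for prothrombin, lay below the filter.

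**Figure D4:**
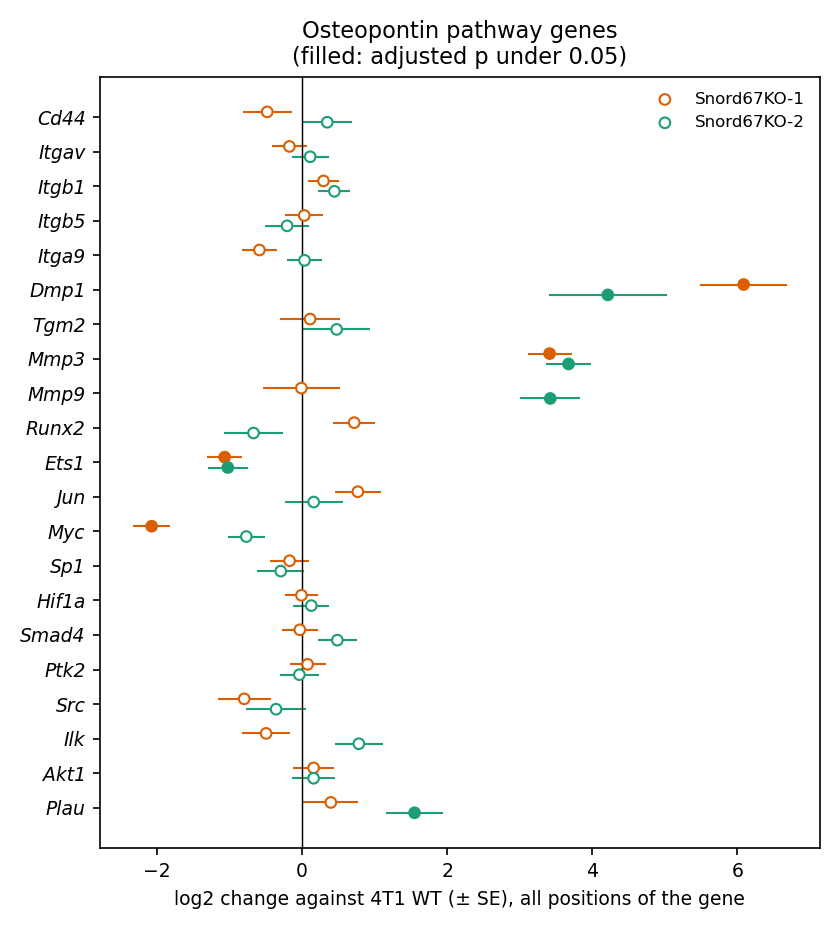
Log2 change of the tested genes of the osteopontin lists in Snord67KO-1 and in Snord67KO-2 against 4T1 WT, with points for the estimate, bars for the SE and filled points for an adjusted p under 0.05. Dmp1 (6.09 and 4.22) and Mmp3 (3.41 and 3.67) stand high in both clones, Mmp9 (3.42) in Snord67KO-2, and Myc (−2.07) lies lowest in Snord67KO-1. Dmp1, Mmp3 and Mmp9 passed the filter only through libraries of a clone where they were high.

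Transcription regulators listed for Spp1 include Runx2, Ets1 and Myc. Of 8 regulators 7 were tested, none was higher in either clone, 2 were lower in Snord67KO-1 (8.2% of all genes) and 1 was lower in Snord67KO-2 (0.747% of all genes). Myc held 97, 105 and 93 counts in 4T1 WT, 20, 22 and 29 in Snord67KO-1, and 11, 33 and 33 in Snord67KO-2. Myc fell by 2.07 on the log2 scale in Snord67KO-1 (SE 0.26, adjusted p = 8.91e-05) and its value in Snord67KO-2 was −0.77 (adjusted p = 0.113). Ets1 held 56, 90 and 41 counts, then 35, 20 and 34, then 6, 17 and 16, and its log2 change was −1.06 in Snord67KO-1 (adjusted p = 0.00556) and −1.02 in Snord67KO-2 (adjusted p = 0.0493). The Ets1 call in Snord67KO-2 was kept in 5 of 17 alternatives and lost without any 1 library other than 4T1 WT replicate 3 (adjusted p 0.0539 to 0.208). Runx2, a master regulator of bone formation, held 20, 17 and 14 counts, then 42, 16 and 29, then 2, 4 and 8, with 63.2% of them outside exons. The median log2 change over the 7 regulators was −0.03 in Snord67KO-1 and −0.29 in Snord67KO-2, and that over all genes tested was −0.04 and −0.03.

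The receptors of osteopontin include CD44 and several integrins, and 5 of 10 passed the filter. None of these 5 passed edgeR's quasi-likelihood test in either clone when all positions of each gene were counted, against 18.3% of all genes in Snord67KO-1 and 3.18% in Snord67KO-2. Cd44 held 12063, 6518 and 9978 counts in 4T1 WT, 7207, 5802 and 8585 in Snord67KO-1, and 3564, 6082 and 5811 in Snord67KO-2. Of the Cd44 counts 98.9% lay outside annotated exons and 38.9% at 1 position, and the log2 changes were −0.48 in Snord67KO-1 (adjusted p = 0.353) and 0.35 in Snord67KO-2 (adjusted p = 0.628). Without 4T1 WT replicate 2, the library with the highest share of marked positions, Cd44 was lower in Snord67KO-1, at −0.77 (adjusted p = 0.0268). In annotated exons alone Cd44 held 54, 53 and 40 counts in 4T1 WT, 154, 103 and 144 in Snord67KO-1, and 31, 63 and 58 in Snord67KO-2. These make 73.4 ± 9.48, 216 ± 11.0 and 151 ± 17.5 CPM of exon counts (SD, n = 3), with no overlap between the genotypes. Fitted on exon counts, Cd44 was higher in Snord67KO-1 by 1.55 on the log2 scale (SE 0.22, adjusted p = 0.000236), where 15.8% of 4575 genes were called. Cd44 was also higher in Snord67KO-2 by 1.26 (SE 0.22, adjusted p = 0.00506), where 4.09% were called, and the difference between the clones, where 1.57% were called, missed the threshold (−0.30, adjusted p = 0.594). The direction of Cd44 in Snord67KO-1 thus turned with the positions counted. Spp1 did not: 98.7% of its counts were in exons. Itgb1, the integrin beta-1 chain shared by many receptors, had log2 changes of 0.30 in Snord67KO-1 (adjusted p = 0.371) and 0.45 in Snord67KO-2 (adjusted p = 0.286). Itga9 held 3 exon counts of 7829, and without 4T1 WT replicate 2 its value over all positions passed as lower in Snord67KO-1 (−0.76, adjusted p = 0.0092). The genes Itgb3, Itgb6, Itga4, Itga5 and Itga8 lay below the filter.

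**Figure D5:**
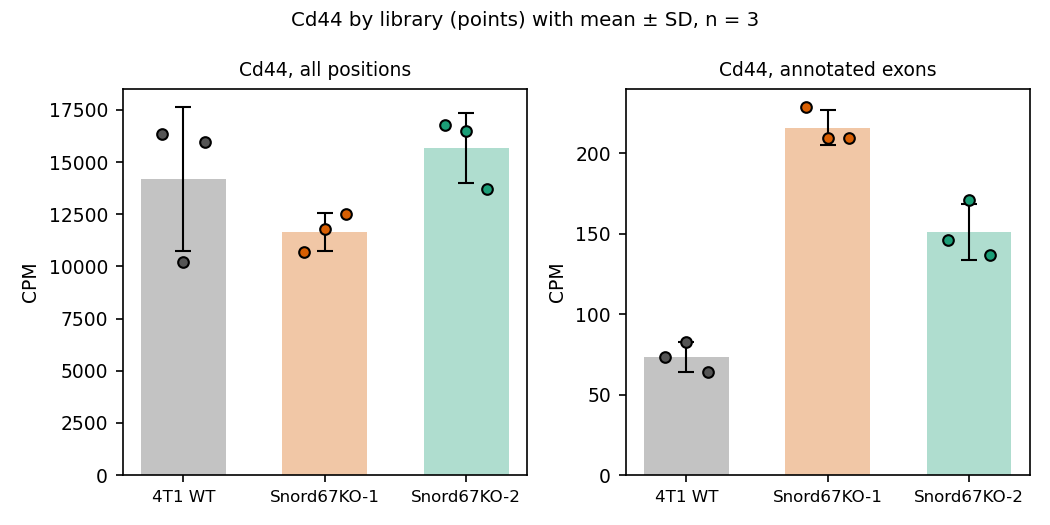
Cd44 level in CPM in each library, from all positions of the gene and from annotated exons alone, with points for libraries, bars for the means and error bars for the SD (n = 3), on separate axes. The exon counts average 73.4 CPM in 4T1 WT, 216 CPM in Snord67KO-1 and 151 CPM in Snord67KO-2, while the parental totals over all positions overlap those of both clones.

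The 5 genes of downstream signalling were all tested. None passed in Snord67KO-1, where 18.3% of all genes did, and 1 passed in Snord67KO-2, where 3.18% did. That gene was Plau, which codes for urokinase, at 1.55 on the log2 scale (adjusted p = 0.0366), a call kept in 11 of 17 alternatives and lost without 4T1 WT replicate 1, Snord67KO-1 replicate 1 or any 1 Snord67KO-2 replicate (adjusted p 0.0505 to 0.166). Ilk, the integrin-linked kinase, was higher in Snord67KO-2 than in Snord67KO-1 by 1.28 (adjusted p = 0.0465), a call kept in 6 of 17 and lost without any 1 clone library.

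The genes whose levels ran most like that of Spp1 were taken by Pearson's r of log2(CPM + 1) over the 9 libraries, among genes with a mean of at least 20 CPM. These were Mmp3 (r = 0.991), Cd9, a tetraspanin (r = 0.991), Fth1, the ferritin heavy chain (r = 0.983), Tmsb4x, thymosin beta-4, which binds actin (r = 0.965), and Errfi1, an inhibitor of the EGF receptor (r = 0.963). The libraries fall into parental cells and clones, so these r values mostly describe that split. Cd9 averaged 53.0 CPM in the parental cells, 182 in Snord67KO-1 and 211 in Snord67KO-2. Fth1 averaged 273, 902 and 901 CPM in the same order. Tmsb4x, at 39.3, 111 and 108 CPM, and Errfi1, at 43.9, 91.1 and 93.7 CPM, were smaller in range than Cd9 and Fth1. The fold of each of the 5 lay below that of Spp1 in both clones.

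Markers of other cells that make osteopontin were low in most libraries and none passed the filter on low counts. The 6 macrophage markers summed to 3 counts in each 4T1 WT library, 2 to 28 in Snord67KO-1 and 0 to 6 in Snord67KO-2, with Lyz2 and Tyrobp at 1 count each over all 9 libraries. The most counted of them lay mostly outside exons, Adgre1 with 95.8% of 24 counts and Ptprc with 85.7% of 14. The fibroblast markers, 4 of 5 without Thy1, summed to 1 to 5, 7 to 16 and 0 to 1 counts. The osteoblast markers, 3 of 4 without Ibsp, summed to 0 to 3, 2 to 12 and 0 to 1 counts, and Thy1 and Ibsp were not analysed here. All 3 sums reached their highest value in Snord67KO-1, but its macrophage and osteoblast ranges overlapped those of 4T1 WT. Across the Snord67KO-1 replicates Adgre1 held 14, 1 and 3 counts, Ptprc 10, 0 and 1, and the osteoblast marker Alpl 8, 2 and 3. The part of these sums in the Spp1 level was not tested. Epithelial markers, all but Krt14 present in every library as the labelled carcinoma line would have, were tested for 5 of 6 genes, and their sum was 342 to 618 CPM in 4T1 WT, 916 to 998 in Snord67KO-1 and 675 to 820 in Snord67KO-2. By edgeR's quasi-likelihood test 2 were higher and 1 lower in Snord67KO-1 (10.1% and 8.2% of all genes). In Snord67KO-2, 3 were higher and 0 lower (2.43% and 0.747% of all genes). The median log2 change over the 5 was −0.46 in Snord67KO-1, a fall although the sum rose, and 1.05 in Snord67KO-2. Krt14 lay below the filter, at 0 counts in every Snord67KO-1 library. Krt8, a keratin of simple epithelia, was higher by 1.85 on the log2 scale in Snord67KO-1 (adjusted p = 0.000172) and 1.44 in Snord67KO-2 (adjusted p = 0.00661), a call lost without Snord67KO-2 replicate 2 (adjusted p = 0.0515). Its partner Krt18 was higher by 1.46 (adjusted p = 0.00159) and 1.05 (adjusted p = 0.0493), and the latter was lost without 4T1 WT replicate 1 or 3, Snord67KO-1 replicate 1 or any 1 Snord67KO-2 replicate (adjusted p 0.0747 to 0.184). Cdh1, the gene for E-cadherin, was lower in Snord67KO-1, at −1.07 (adjusted p = 0.0052), and Epcam was higher in Snord67KO-2 by 1.28 (adjusted p = 0.0321), a call lost without 4T1 WT replicate 1 or 2, Snord67KO-1 replicate 1 or any 1 Snord67KO-2 replicate (adjusted p 0.0514 to 0.155). The part of these markers in the Spp1 level was not tested.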

How the data were processed

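RibOxi-seq was performed by the authors on 9 oxidized and 9 control libraries. Poly(A) RNA was fragmented with Benzonase, oxidized and ligated to a 3′ linker, and reads were trimmed with cutadapt, merged with PEAR and aligned with STAR. The deposited table held raw counts of 3′ ends per genomic position for the 9 oxidized libraries, and per the labels the build was mm10. Coordinates were checked against GENCODE M21 on GRCm38, in which 98.6% of positions lay inside their named gene. No deposited column of a comparison was used. Counts were summed per gene and tested with edgeR 4.0.16 (R 4.3.3) quasi-likelihood fits over all 3 genotypes, with TMM scaling, at least 10 counts in 3 libraries, and Benjamini-Hochberg adjustment with a threshold of 0.05. Positions were tested between the clones with the log of the gene's other counts plus 1 as offset, for genes with at least 50 other counts. CPM used each library's total in the table. Shares were compared with exact permutation tests, with scipy 1.17.1. The fits were tested on simulated data: between the clones 14.5%, 81.5% and 93.0% of gene totals changed 2-, 4- and 8-fold were called, and 0%, 20.0% and 71.5% of such positions. The simulation used the same spread for all genes, and for positions a fixed spread not estimated from these data. These rates hold for that setting only. Alternatives were other scalings, no filter, DESeq2 1.42.0, marked positions or Rn45s left out, a replicate block, each replicate left out and, chosen after seeing the data, counts in annotated exons only. Replicates of a genotype differed beyond sampling noise (chi-square per degree of freedom 1.56 to 17.0 over 9 pairs). Named positions were the 8 highest of Spp1, ties taken by the lower coordinate, of which those that the text turns on are given, and named genes were the members of the lists and the 5 genes most like Spp1. The members, lists and tests were chosen with earlier results of these data known.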

Additional observations from a re-analysis of the deposited data

Results flagged for a closer look

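The genes below differed between the clones in edgeR's quasi-likelihood test (Benjamini-Hochberg adjustment), so that the change against 4T1 WT was unlike in Snord67KO-1 and Snord67KO-2. On the log2 scale of Snord67KO-2 against Snord67KO-1, Mmp9 was higher by 3.43 (adjusted p = 0.000128), Epcam by 2.28 (adjusted p = 0.00127), Myc by 1.30 (adjusted p = 0.0198), Ilk by 1.28 (adjusted p = 0.0465), Cdh1 by 1.04 (adjusted p = 0.0298) and Krt7, a keratin of ductal epithelia, by 1.03 (adjusted p = 0.0286). Dmp1 was lower, at −1.87 (adjusted p = 0.0215), as was Runx2, at −1.39 (adjusted p = 0.0499). The Myc difference was called in 12 of 17 alternatives, that of Ilk in 6 of 17 and that of Runx2 in 6 of 16. Those of Mmp9 and Epcam were called in every alternative that gave a value, and Mmp9 fell below the filter without any 1 Snord67KO-2 replicate. With 1 library left out, that of Dmp1 was lost without Snord67KO-1 replicate 3 or any 1 Snord67KO-2 replicate (adjusted p 0.079 to 0.121), that of Myc without Snord67KO-1 replicate 1 or Snord67KO-2 replicate 2 or 3 (0.0673 to 0.141), and that of Cdh1 without any 1 Snord67KO-1 replicate or Snord67KO-2 replicate 1 or 2 (0.0818 to 0.172). That of Krt7 was lost without any 1 clone library (0.0676 to 0.16), that of Ilk without any 1 clone library or 4T1 WT replicate 1 (0.0541 to 0.215), and that of Runx2 without 4T1 WT replicate 1 or 3, Snord67KO-1 replicate 1 or 3 or any 1 Snord67KO-2 replicate (0.0554 to 0.215). Groups of 3 libraries were not searched for outlying values. Over all genes 4T1 WT replicate 2 stood apart from its fellow replicates. Dmp1 and Mmp9 passed the filter only with the libraries of the clone where each was high, and both differences were also called with no filter.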

How the results depend on the processing

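The Spp1 folds over 4T1 WT kept their direction in every setting run. With TMM-scaled CPM they were 15.7 in Snord67KO-1 and 25.1 in Snord67KO-2, and with 1 replicate left out 16.3 to 18.5 and 20.3 to 22.8. Between the clones Spp1 stayed higher in Snord67KO-2 in 17 alternatives, at 0.65 (log2) with marked positions left out and 0.56 to 0.76 with 1 replicate left out. The parental libraries, with 63 to 78 Spp1 counts, limit all statements on single positions there.

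The number of genes tested changed with the setting, from 6295 in the main fit to 4575 with exon counts and 19417 with no filter. A higher number called is thus not a higher share. Genes called in Snord67KO-1 (1149) became 575 with DESeq2, 721 with exon counts, 2057 with no filter, 687 with total counts only and 432 to 1084 with 1 replicate left out. In Snord67KO-2 (200) they became 436 with no filter, 32 with total counts only and 53 to 307 with 1 replicate left out. Between the clones (251) they became 110 with DESeq2, 72 with exon counts, 462 with no filter and 53 to 465 with 1 replicate left out. For the average of both clones (759) they became 389 with DESeq2, 321 with total counts only and 436 to 755 with 1 replicate left out. Total counts only gave 549 higher and 138 lower in Snord67KO-1 (633 and 516 under TMM), 30 and 2 in Snord67KO-2 (153 and 47) and 27 and 185 between the clones (113 and 138). For the average it gave 183 and 138 (390 and 369). No filter gave 154 higher and 282 lower in Snord67KO-2, 372 and 705 for the average and 133 and 329 between the clones. DESeq2 gave 385 and 190 in Snord67KO-1, and exon counts 47 and 25 between the clones.

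A turned direction of a gene was listed only where a value was called or the main log2 change exceeded its SE. By that rule directions turned for Cd44 with exon counts (1.55 in Snord67KO-1, 1.40 for the average, −0.30 between the clones). They also turned with total counts only for Itgav (−0.070) and Mmp3 (−0.11) between the clones, neither called. Smaller values of other genes changed sign too, such as Ptk2 in Snord67KO-1 (0.08, and −0.41 with exon counts, neither called). The intron share difference was −0.058 points with any annotated exon counted as exon and −0.171 to 0.497 with 1 replicate left out. Same-numbered replicates had r of −0.161 to 0.351, with 2 of 9 pairs above 0.1. These 2 pairs joined 4T1 WT and Snord67KO-1, at 0.351 for replicate 2 and 0.302 for replicate 3. The highest r of a differently numbered pair was 0.201, so a replicate effect shared by these genotypes is not excluded. The replicate block called 871 genes for the average, 1266 in Snord67KO-1, 279 in Snord67KO-2 and 274 between the clones. The causes of these shifts were not tested.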
